A study of Homo sapiens with 9 samples.

Results

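The genes described here are the 6 TRAF adaptors (TRAF1 to TRAF6), 3 inhibitor of apoptosis proteins (BIRC2, BIRC3 and XIAP) and CFLAR, which encodes cFLIP. They were chosen by gene symbol, with earlier results of these data known. Each was found once, so that 10 of the 62710 gene identifiers counted are covered. RNA was measured in HT-29 cells, an established wild-type epithelial line from a human colorectal adenocarcinoma, in 9 libraries. Of these, 3 came from non-stimulated cells, 3 from cells given 500 ng/mL flagellin and 3 from cells given 500 ng/mL ADP-heptose, both for 2.5 h. Flagellin is the bacterial protein sensed by TLR5 at the cell surface, and ADP-heptose is a bacterial sugar metabolite sensed in the cytosol by the kinase ALPK1. A single line in culture was used, and the sample labels do not say whether replicates came from separate cultures, although the study describes its RNA-seq as independent experiments; p-values here measure the spread between these libraries.

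TRAF proteins are adaptors that carry signals from receptors of the TNF, Toll-like and interleukin-1 families to the kinases that activate NF-κB and MAP kinases. ALPK1 phosphorylates TIFA, which then assembles TRAF proteins, TRAF6 among them. The cellular inhibitors cIAP1 (BIRC2) and cIAP2 (BIRC3) are ubiquitin ligases that bind TRAF2, while XIAP blocks caspases directly and cFLIP keeps caspase-8 from being activated at death receptors. BIRC3, TRAF1 and CFLAR are textbook targets of NF-κB.

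Library totals were 35040844 to 37537705 counts in non-stimulated, 30770448 to 38304035 in flagellin and 50054773 to 58272772 in ADP-heptose cells. Levels are given as CPM, counts divided by library size after TMM, edgeR's correction for library composition, and a gene is called changed at an adjusted p under 0.05 (edgeR quasi-likelihood test over 17412 genes, Benjamini-Hochberg). One library stood apart: over 9882 genes, log2 CPM of ADP-heptose replicate 3 differed from replicates 1 and 2 with an SD of 0.357 and 0.366, against 0.0923 between replicates 1 and 2, 0.115 to 0.134 among flagellin and 0.110 to 0.148 among non-stimulated libraries. The 8 epithelial markers summed to 7463 to 7786 CPM in non-stimulated, 7646 to 7927 in flagellin and 8242 to 11528 in ADP-heptose libraries, though CDX2, an intestinal transcription factor, had only 17 to 48 counts. ADP-heptose replicate 3 stood out here too. KRT8 was at 6527 CPM there against 4489 and 4522 in replicates 1 and 2, and KRT18 at 2921 against 1793 and 1737. The 6 markers of other cell types summed to 13.4 to 15.6, 13.6 to 17.2 and 17.5 to 19.7 CPM in the same order. COL1A1 made up most of that sum, CD3E was at 0 in all 9 libraries, and PTPRC, CD68 and PECAM1 had at most 4 counts. The count of CD68 is uncertain, since 81.7% of its exon bases overlap another gene on the same strand. The part of these shifts in the results below was not tested, and in bulk RNA a change in the number of cells of a type cannot be told apart from a change in RNA per cell.

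The DNA just before the transcription starts is shown first, for the 5 genes that carry the main contrasts: BIRC3 and its neighbour BIRC2, which responded to different degrees, TRAF1 and TRAF3, and the NF-κB match of CFLAR. All were taken from RefSeq (GRCh38.p14), 5′ to 3′ on the strand of the gene. For BIRC3, BIRC2, TRAF3 and TRAF1, bases that GENCODE release 29 annotates as exon were left out. For CFLAR only 30 bases around the match are shown, and annotated exon bases were not left out there. Capitals mark matches to the NF-κB consensus on either strand. In GENCODE release 29 BIRC3 lies at chr11:102317450-102339403 and BIRC2 at chr11:102347211-102378670, both on the plus strand and 7807 bases apart. The BIRC3 stretch is chr11:102317234-102317449, that of BIRC2 chr11:102346964-102347210, that of TRAF3 chr14:102777199-102777448, that of TRAF1 chr9:120929174-120929421 on the minus strand, and that of CFLAR chr2:201118609-201118638.
BIRC3: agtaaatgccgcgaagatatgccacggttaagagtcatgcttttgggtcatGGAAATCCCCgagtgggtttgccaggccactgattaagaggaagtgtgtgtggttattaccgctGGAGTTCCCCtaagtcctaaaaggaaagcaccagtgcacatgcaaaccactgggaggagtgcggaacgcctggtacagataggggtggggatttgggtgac
BIRC2: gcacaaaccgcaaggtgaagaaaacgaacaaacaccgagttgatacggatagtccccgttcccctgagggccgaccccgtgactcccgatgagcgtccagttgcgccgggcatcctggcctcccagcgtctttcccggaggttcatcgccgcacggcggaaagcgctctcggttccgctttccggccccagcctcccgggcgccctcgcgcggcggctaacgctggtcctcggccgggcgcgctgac
TRAF3: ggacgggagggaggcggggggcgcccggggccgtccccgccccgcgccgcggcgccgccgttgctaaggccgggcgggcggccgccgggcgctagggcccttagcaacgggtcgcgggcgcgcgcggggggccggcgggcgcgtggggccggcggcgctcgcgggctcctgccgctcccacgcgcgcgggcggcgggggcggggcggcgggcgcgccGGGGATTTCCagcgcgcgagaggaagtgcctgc
TRAF1: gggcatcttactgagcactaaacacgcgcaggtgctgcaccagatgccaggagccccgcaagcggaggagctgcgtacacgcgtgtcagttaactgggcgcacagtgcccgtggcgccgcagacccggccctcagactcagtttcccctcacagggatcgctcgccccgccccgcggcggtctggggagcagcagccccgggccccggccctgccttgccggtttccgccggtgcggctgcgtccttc
CFLAR: cgcggggggcGGGGAATTCCgcagacagga

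Distances are counted from RefSeq transcript starts, which differ from the GENCODE gene starts. The 250 bases before the start held an NF-κB consensus match at 3 of the 20 RefSeq starts of the 10 genes, which belong to BIRC3, TRAF3 and CFLAR. Among 35116 such windows of all genes, 5.21% held one. BIRC3 had 2 matches, 199 to 190 and 135 to 126 bases before its RefSeq start at position 102317484, both on the opposite strand. The TRAF3 match lay 33 to 24 bases before a RefSeq start at position 102777449, on the gene's strand. The CFLAR match lay 97 to 88 bases before a RefSeq start at position 201118716, also on the gene's strand; this start is inside the GENCODE gene, which begins at position 201116104. The AP-1 letters TGANTCA were found before 1 of the 20 starts, against 6.57% of all windows. This is near the share of all windows and so not a result about the 10 genes. The start is another one of CFLAR, with the letters 160 to 154 bases before position 201132781. A letter match is not a measured binding site, and these letters were not in the windows of BIRC2 and TRAF1.

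After ADP-heptose, 7 of the 10 genes were higher and 0 were lower than in non-stimulated cells. Of all 17412 genes tested, 7.48% were higher and 4.42% lower. Since the 10 genes were chosen with earlier results known, such counts describe them and are not independent support. At a change of at least 2-fold as well, 4 of the 10 remained higher (BIRC3, CFLAR, TRAF1 and BIRC2), against 2.89% of all genes. In 8 genes every ADP-heptose library lay above every non-stimulated one, against 15.4% of all genes, and in 1, TRAF5, every one lay below, against 14.7%. The median log2 fold change of the 10 genes was 0.83, and that of all genes was 0.01. After flagellin 1 of the 10 genes, BIRC3, was higher, against 0.368% of all genes, and 0 were lower, against 0.0115%. Both comparisons use the same 3 non-stimulated libraries.

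**Figure D1:**
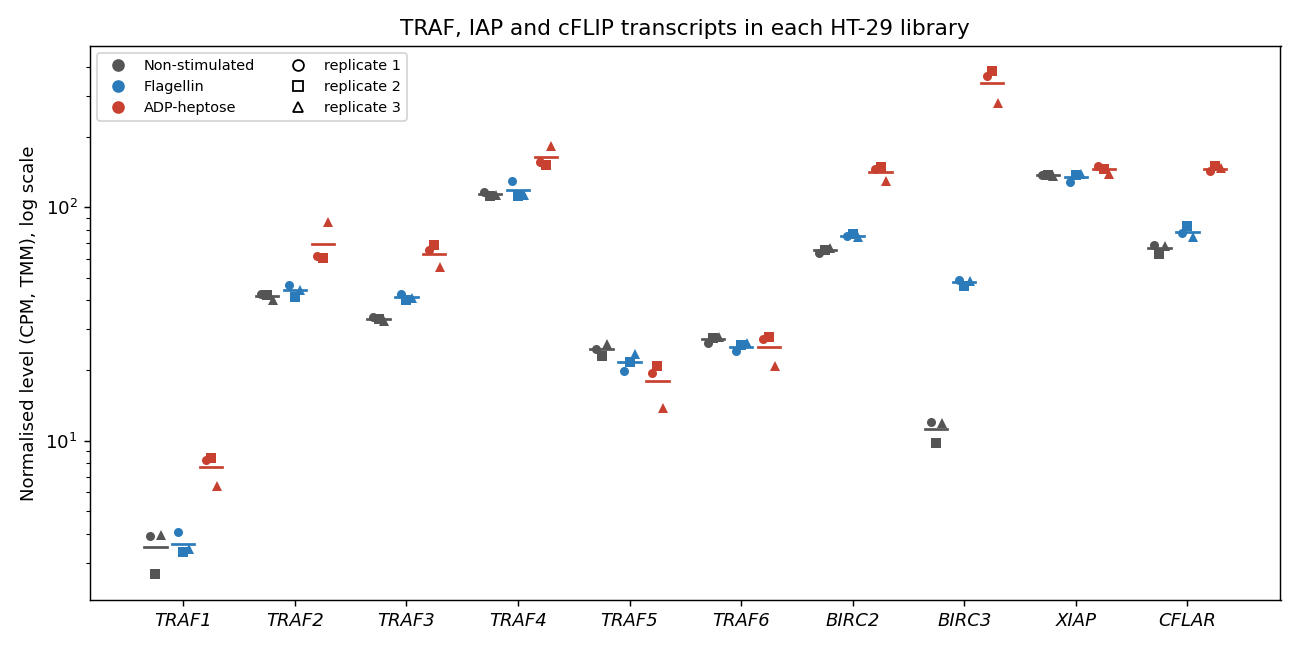
Level of each of the 10 genes in each of the 9 libraries, in CPM on a log axis, coloured by group and with a marker shape for each replicate. Levels are to be compared within a gene, since gene length is not accounted for; BIRC3 runs from 9.74 to 383 CPM and has 3 separate groups of points.

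BIRC3, the inducible ubiquitin ligase cIAP2, had the largest change of the 10 genes under both stimuli. Its level was 12.1, 9.74 and 11.9 CPM in the non-stimulated libraries, 48.6, 45.9 and 48.4 CPM after flagellin, and 363, 383 and 280.1 CPM after ADP-heptose. The 3 groups did not overlap. The log2 fold change was 4.93 after ADP-heptose (SE 0.13, adjusted p = 1.6e-10, edgeR), a 30.4-fold rise with a 95% interval of 24.8 to 37.3. It was 2.08 after flagellin (SE 0.12, adjusted p = 1.9e-06, edgeR), a 4.24-fold rise with an interval of 3.52 to 5.10. Set directly against each other, ADP-heptose cells held 7.18 times the level of flagellin cells (log2 2.84, SE 0.12, adjusted p = 1.3e-08, edgeR).

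BIRC2, the paralogue cIAP1, rose far less. It stood at 63.6, 65.7 and 66.8 CPM in non-stimulated, 75.5, 76.9 and 74.6 CPM in flagellin and 145, 148 and 130.1 CPM in ADP-heptose libraries. The ADP-heptose group lay wholly above the other 2, and the flagellin group lay wholly above the non-stimulated one (at least 74.6 against at most 66.8 CPM). The change after ADP-heptose was 2.16-fold (log2 1.11, SE 0.07, adjusted p = 3.3e-07, edgeR). After flagellin the log2 difference was 0.21 (95% interval 0.06 to 0.36, adjusted p = 0.830, edgeR). No stretch of 100 bases is shared between the annotated transcripts of BIRC2 and BIRC3.

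XIAP, the caspase inhibitor encoded on the X chromosome, was called in none of the 3 comparisons. Its levels were 137, 138 and 136 CPM without stimulation, 129, 138 and 139 CPM after flagellin, and 150.1, 146 and 139 CPM after ADP-heptose. All 9 libraries fell within a narrow band, yet every ADP-heptose library lay above every other library. The lowest ADP-heptose value was 139.2 CPM, against at most 137.8 without stimulation and 138.6 after flagellin. The log2 difference was 0.08 after ADP-heptose (95% interval −0.05 to 0.22, adjusted p = 0.428, edgeR) and −0.02 after flagellin (interval −0.16 to 0.12, adjusted p = 1).

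Per kilobase of annotated exon, the summed level of the cIAP pair was 15.6 to 16.3 CPM in non-stimulated, 22.9 to 23.1 in flagellin and 66.0 to 83.6 in ADP-heptose libraries. BIRC3 made up 9.39% ± 1.07 (SD, n = 3) of this sum without stimulation, 27.5% ± 0.927 (SD, n = 3) after flagellin and 59.2% ± 2.36 (SD, n = 3) after ADP-heptose. The shares of the 3 groups did not overlap. An exact two-sided permutation test of each of the 3 comparisons gave p = 0.1 (adjusted p = 0.1), the smallest value that 3 against 3 libraries allow. The share depends on the length used: with the median length of the protein-coding transcripts, it was 7.17%, 22.0% and 51.9% in the same order.

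**Figure D2:**
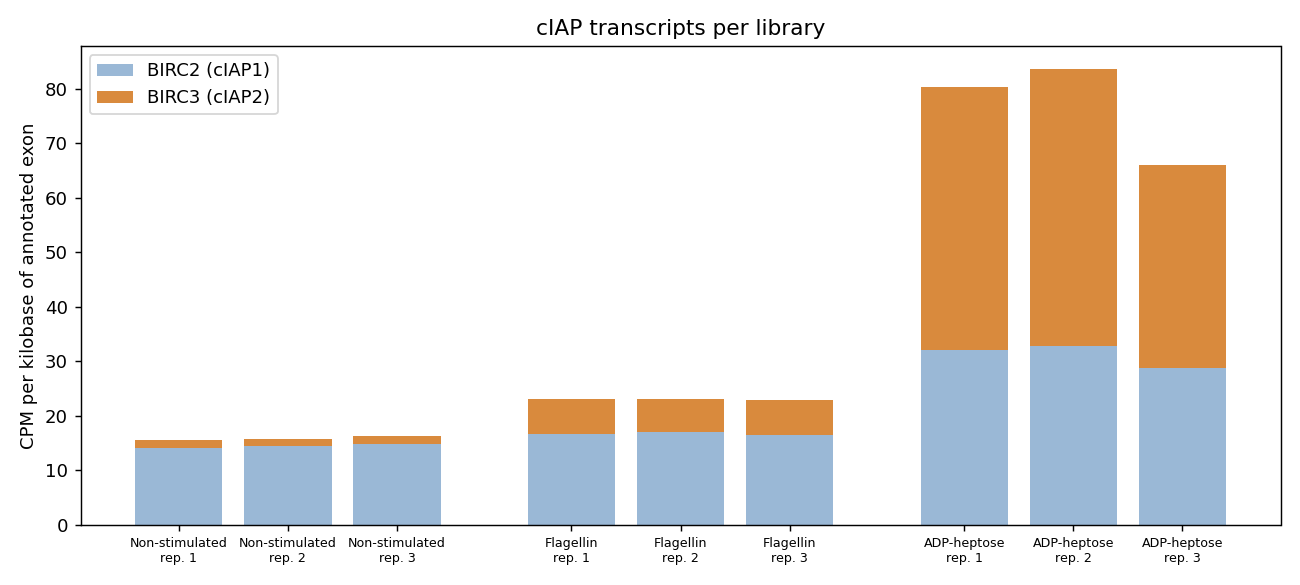
Level per kilobase of annotated exon (CPM per kilobase, linear axis) of BIRC2 and BIRC3, stacked, with 1 bar for each library. The BIRC3 portion is 8.21 to 10.3% of the bar without stimulation, 26.4 to 28.1% after flagellin and 56.5 to 60.9% after ADP-heptose.

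Of the 6 TRAF genes, 4 rose after ADP-heptose, against 7.48% of all genes. After flagellin 0 of the 6 were called, a count near the shares of all genes (0.368% higher and 0.0115% lower). TRAF1, an adaptor without the RING domain of the other family members, was the lowest of the 10 genes per length and had the largest fold change among the TRAF genes. It measured 3.89, 2.67 and 3.94 CPM in non-stimulated, 4.05, 3.32 and 3.45 CPM in flagellin and 8.25, 8.47 and 6.40 CPM in ADP-heptose libraries. The first 2 groups overlapped and the ADP-heptose group lay above both. The change was 2.20-fold (log2 1.14, SE 0.17, adjusted p = 8.1e-04, edgeR), resting on 290 to 478 counts against 96 to 152. Its log2 difference after flagellin was 0.04 (95% interval −0.35 to 0.44), a wider interval than for the more abundant genes.

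TRAF3, which with TRAF2 and the cIAPs holds the NF-κB-inducing kinase MAP3K14 in check, stood at 34.0, 33.2 and 32.7 CPM in non-stimulated cells. It reached 42.4, 40.2 and 40.9 CPM with flagellin and 65.7, 68.6 and 55.5 CPM with ADP-heptose. Its 3 groups did not overlap, in the same order as those of BIRC3. After ADP-heptose it was 1.90-fold higher (log2 0.93, SE 0.08, adjusted p = 1.1e-05, edgeR), and after flagellin the log2 difference was 0.31 (95% interval 0.12 to 0.49, adjusted p = 0.464, edgeR).

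TRAF2, the adaptor that recruits the cIAPs, measured 42.5, 42.1 and 40.0 CPM in non-stimulated, 46.6, 41.4 and 44.1 CPM in flagellin and 61.6, 60.5 and 86.3 CPM in ADP-heptose libraries. ADP-heptose replicate 3 was the highest by a wide margin. The change was 1.67-fold (log2 0.74, SE 0.12, adjusted p = 0.00148, edgeR) and 0.56 on the log2 scale without that library (adjusted p = 1.1e-08). TRAF4, a family member found in many epithelia, showed the same replicate pattern. Its levels were 116, 111 and 113 CPM, then 129.6, 112 and 113 CPM, and after ADP-heptose 157, 151 and 182 CPM, a 1.44-fold rise (log2 0.53, SE 0.09, adjusted p = 0.00137, edgeR).

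TRAF5 and TRAF6 were not called in any comparison. TRAF5, a relative of TRAF2 and TRAF3 in TNF receptor signalling, measured 24.7, 23.1 and 26.1 CPM in non-stimulated, 19.9, 21.7 and 23.5 CPM in flagellin and 19.5, 20.9 and 13.8 CPM in ADP-heptose libraries. The ADP-heptose group lay wholly below the non-stimulated one, with replicate 3 lowest. Its log2 difference was −0.44 (SE 0.14, 95% interval −0.74 to −0.15, adjusted p = 0.0564, edgeR), and 5 of 16 alternative settings put it past the threshold, with adjusted p from 0.00122 to 0.193 over the 16. TRAF6, the adaptor that TIFA engages, held 26.3, 27.5 and 27.8 CPM in non-stimulated, 24.2, 25.7 and 26.1 CPM in flagellin and 27.2, 27.8 and 20.9 CPM in ADP-heptose libraries. Its log2 difference was −0.10 after either stimulus, with a 95% interval of −0.33 to 0.12 after ADP-heptose (adjusted p = 0.570, edgeR).

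CFLAR rose after ADP-heptose with little spread between libraries. It measured 69.0, 63.1 and 68.0 CPM in non-stimulated, 77.5, 82.7 and 74.6 CPM in flagellin and 143, 149.8 and 147 CPM in ADP-heptose libraries. The 3 groups did not overlap. The change was 2.20-fold after ADP-heptose (log2 1.14, SE 0.07, adjusted p = 2.6e-07, edgeR), and the log2 difference after flagellin was 0.23 (95% interval 0.08 to 0.38, adjusted p = 0.579, edgeR). CASP8, the caspase that cFLIP restrains, had a log2 difference of 0.02 after ADP-heptose (adjusted p = 0.870, edgeR), and the ratio of CFLAR to CASP8 per kilobase of exon went from 0.368 to 0.422 without stimulation to 0.836 to 0.882 with ADP-heptose. With the median protein-coding transcript length the ratio averaged 1.30 (SD 0.0914, n = 3) and 2.82 (SD 0.0776, n = 3), so its size depends on the length used. An antisense gene, CFLAR-AS1, named after its values were seen, shares 777 exon bases with CFLAR (3.45% of its exons) and had 92 to 117 counts after ADP-heptose against 21 to 34 without stimulation (log2 1.47, adjusted p = 0.00191, edgeR). A pseudogene on the opposite strand, IMPDH1P10, shares more, 1488 exon bases (6.6%), and had 12 to 19 counts against 0 to 3. CFLAR itself had 6658 to 8453 counts after ADP-heptose against 2265 to 2694 without stimulation. Whether counting used strand is not given in the sources used here, so reads of these 2 genes and of CFLAR cannot be told apart over the shared bases.

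The flagellin comparison depended on which libraries shared the estimate of spread. Fitted with only the 6 flagellin and non-stimulated libraries, 4 of the 10 genes were higher: BIRC3, TRAF3 (log2 0.30, adjusted p = 0.00543), CFLAR (0.23, adjusted p = 0.0337) and BIRC2 (0.21, adjusted p = 0.0475), all by edgeR. In that fit 0.835% of all 16775 genes tested were higher and 0.0179% lower, or 143 calls against 66 with all 9 libraries. Leaving out ADP-heptose replicate 3 gave the same count of 4. The share of all genes higher in that fit is not given here, so that count stands without a background. BIRC3, TRAF3, CFLAR and BIRC2 were also the 4 genes whose flagellin libraries all lay above the non-stimulated ones, against 7.66% of all genes. TRAF6 alone lay wholly below, against 5.19%.

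Between the stimuli, 7 of the 10 genes had the higher level under ADP-heptose and 0 had the lower, against 5.4% and 2.76% of all genes. At 2-fold or more as well, 2 remained higher (BIRC3 and TRAF1) and 0 lower, against 2.06% and 0.287% of all genes. In 8 of the 10 genes every ADP-heptose library lay above every flagellin library, against 14.2% of all genes. The log2 difference was 0.90 for BIRC2 (SE 0.07, adjusted p = 3.2e-06) and 0.90 for CFLAR (SE 0.07, adjusted p = 2.9e-06) by edgeR. For the TRAF genes it was 1.09 for TRAF1, 0.66 for TRAF2, 0.62 for TRAF3 and 0.47 for TRAF4, each called. XIAP (0.11, 95% interval −0.03 to 0.24), TRAF6 (0.00, −0.23 to 0.23) and TRAF5 (−0.26, −0.56 to 0.04) were not called.

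**Figure D3:**
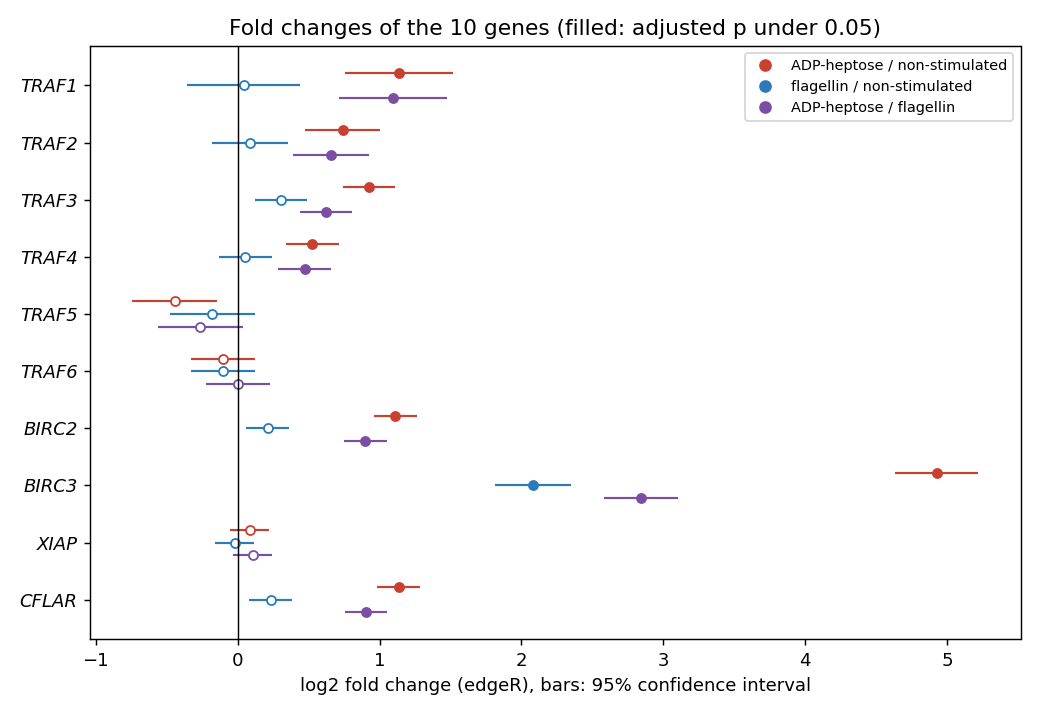
log2 fold change of each of the 10 genes in the 3 comparisons (horizontal axis) with 95% confidence intervals from edgeR; filled points have an adjusted p under 0.05. BIRC3 is filled in all 3 comparisons, and TRAF5, TRAF6 and XIAP in none.

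ADP-heptose replicate 3 was the lowest ADP-heptose library for TRAF1, TRAF3, TRAF5, TRAF6, BIRC2, BIRC3 and XIAP and the highest for TRAF2 and TRAF4. Against the non-stimulated mean, BIRC3 was 32.3 and 34.1 times higher in replicates 1 and 2 and 24.9 times in replicate 3. TRAF5 was at 0.794, 0.849 and 0.559 of that mean. The ratio of TRAF3 to TRAF2 per kilobase was 0.473 and 0.502 in replicates 1 and 2 but 0.285 in replicate 3, against 0.350 to 0.362 without stimulation. Without replicate 3 the 7 genes called after ADP-heptose were still called, and TRAF5 was called lower (log2 −0.28, adjusted p = 0.0176, edgeR).

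**Figure D4:**
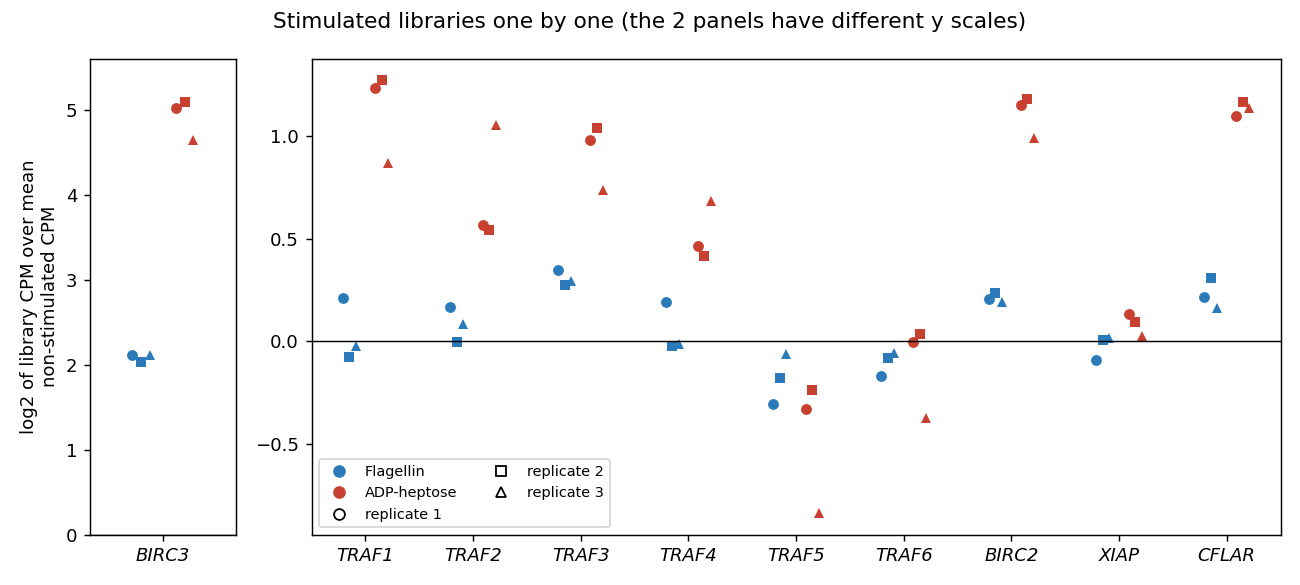
log2 of each stimulated library over the mean of the non-stimulated libraries for each of the 10 genes, with a marker shape for each replicate; the 2 panels have different vertical scales. ADP-heptose replicate 3 departs from replicates 1 and 2 most visibly for TRAF2 and TRAF5.

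Per kilobase of annotated exon, TRAF4 had the highest level without stimulation (24.7 CPM per kilobase), followed by XIAP (15.2), BIRC2 (14.4) and TRAF2 (11.3), while BIRC3 (1.49) and TRAF1 (0.543) were lowest. After ADP-heptose BIRC3 came first (45.5), ahead of TRAF4 (35.6) and BIRC2 (31.1). The order depends on the length used: with the median protein-coding transcript, TRAF4 was first and TRAF1 last in all 3 groups, BIRC3 was 4th after ADP-heptose, and CFLAR, whose exons cover 22529 bases in total, moved up to 2nd. BIRC3 held 1.58 to 1.92% of the summed level of the 10 genes without stimulation, 6.73 to 7.04% after flagellin and 22.6 to 29.3% after ADP-heptose by exon length. With the median protein-coding transcript length these shares were 0.646 to 0.776%, 2.75 to 2.95% and 9.52 to 13.7%.

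The genes most like the 4 that rose at least 2-fold were found by Pearson correlation of log2 CPM over the 9 libraries among 12167 genes. All 9 libraries share the same 3 groups, so the correlations are high and are given as a description. Nearest to BIRC3 were ICAM1 (r = 0.998), an adhesion molecule, ABTB2 (0.996) and ZC3H12A (0.995), an RNase that limits inflammatory transcripts. Nearest to BIRC2 were KLF4 (0.999), an epithelial transcription factor, IFIH1 (0.999), an RNA sensor, and IRAK2 (0.998), a kinase of Toll-like receptor signalling. Nearest to CFLAR were N4BP3 (0.996), SEMA4B (0.995) and KPNA4 (0.995), and nearest to TRAF1 were TNS4 (0.988), the mucin MUC2 (0.987) and LOC101927401 (0.986). ICAM1 had a log2 fold change of 5.97 after ADP-heptose and 2.62 after flagellin, and KPNA4 of 0.26 and 0.06.

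Among 31 other genes of the same pathways, 26 could be tested, while NAIP, BIRC8, XAF1, TRAF3IP3 and TIFAB were too low. These lists were also drawn up with earlier results known, so their counts are a description. After ADP-heptose 8 of the 26 rose and 0 fell (median log2 difference 0.15), against 7.48% and 4.42% of all genes. After flagellin 0 were called (median 0.07), against 0.368% higher and 0.0115% lower among all genes. Of the other BIR-domain proteins and IAP antagonists, 0 of 5 tested were called in any comparison, a count near these shares of all genes and so not a result about the list. Of the TRAF relatives and TRAF-binding proteins 3 of 8 rose: TIFA, the ALPK1 substrate (log2 2.18, SE 0.13, adjusted p = 2.2e-07), TANK, a TRAF-binding scaffold (0.57, SE 0.06, adjusted p = 6.2e-05), and MAP3K14 (0.54, SE 0.12, adjusted p = 0.0132), all by edgeR. TIFA averaged 12.3 CPM without stimulation (SD 2.28, n = 3), 19.6 after flagellin (SD 2.56, n = 3) and 55.7 after ADP-heptose (SD 0.334, n = 3), and its groups did not overlap.

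Of the 13 receptor and death complex genes, 5 rose after ADP-heptose, against 7.48% of all genes. TNFRSF10B, a death receptor for TRAIL, went from 119 to 136 CPM in non-stimulated to 334 to 446 CPM in ADP-heptose libraries (log2 1.65, SE 0.10, adjusted p = 3.4e-07, edgeR). The others were CASP10 (log2 0.55), TNFRSF1A, the main TNF receptor (0.47), TNFRSF10A, the other TRAIL death receptor (0.45), and RBCK1, a subunit of the linear ubiquitin ligase (0.37). The adaptor FADD had a log2 difference of −0.32 after ADP-heptose (adjusted p = 0.0532, edgeR) and was lower than after flagellin (−0.43, adjusted p = 0.0149, edgeR), though 54.9% of its exon bases overlap an antisense gene. Between the stimuli 6 of the 26 genes were higher with ADP-heptose: TIFA, TANK, MAP3K14, TNFRSF10B, TNFRSF10A and TNFRSF1A. Of all genes 5.4% were higher in that comparison and 2.76% lower, and of the 26 only FADD was lower. Values of RNF31 (5 to 22 counts) and DIABLO (17 to 45 counts), which share exon bases with other genes on the same strand, are uncertain.

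**Figure D5:**
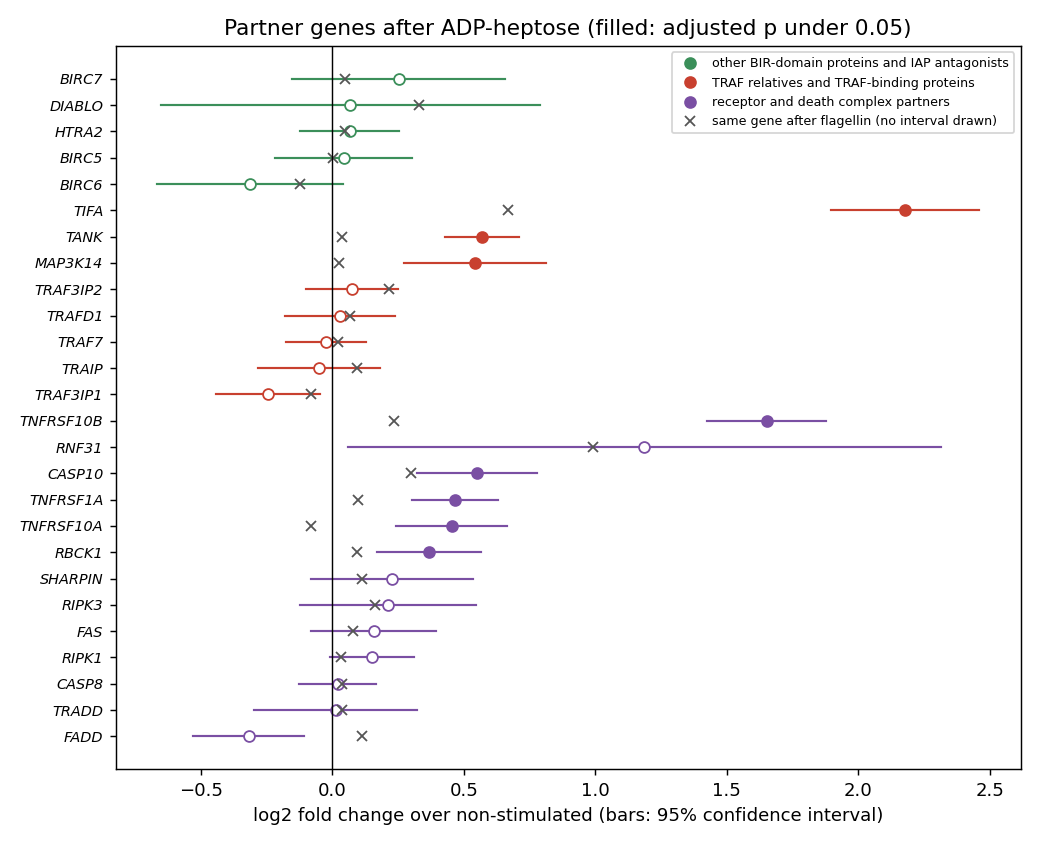
log2 fold change of the 26 tested partner genes after ADP-heptose with 95% confidence intervals from edgeR, coloured by list, filled where the adjusted p was under 0.05; crosses give the same gene after flagellin. TIFA (2.18) and TNFRSF10B (1.65) lie farthest to the right among the filled points.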

How the data were processed

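Poly(A) RNA of the 9 HT-29 libraries was sequenced as paired reads, which the authors aligned with HISAT2 and counted per gene with featureCounts. The deposited values are raw counts, with 1 column per library. Versions, genome build, annotation and strandedness are not given in the sources used here. Dose and time were taken from the study's methods. The table holds 62972 lines for 62710 identifiers, and 232 identifiers listed more than once with the same counts were kept once.

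All 9 libraries entered 1 robust quasi-likelihood fit in edgeR 4.0.16 (R 4.3.3), after TMM scaling and the filterByExpr filter. P-values were adjusted by Benjamini-Hochberg over the 17412 genes tested, and a gene was called at an adjusted p under 0.05. DESeq2 1.42.0 and other settings were alternatives. The procedure was tested on simulated data. Among the 10 genes TRAF1 had the lowest counts (96 to 152 in non-stimulated cells). How much of each gene's spread between libraries comes from counting was not tested. Lengths and positions came from GENCODE release 29 (GRCh38), which need not be the authors' annotation, and promoter sequences from RefSeq (GRCh38.p14). Named genes were the 10 genes, the partner lists, and for each gene called and at least 2-fold higher after ADP-heptose the 3 genes with the highest correlation (mean log2 CPM of at least 1). The members and lists were chosen with earlier results of these data known.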

Additional observations from a re-analysis of the deposited data

How the results depend on the processing

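Over 16 alternatives each, the 7 genes called after ADP-heptose, the same 7 between the stimuli and BIRC3 after flagellin were called in all. With a change of at least 2-fold required as well, 4 genes were higher after ADP-heptose and 2 between the stimuli. The count higher after flagellin was 4 with 6 libraries in the fit and 1 to 4 when each library was left out in turn, 4 without ADP-heptose replicate 3. The count lower after ADP-heptose was 1 (TRAF5) with the DESeq2 test, with library totals and with no filter on low counts, and 0 to 1 when leaving out each library in turn, 1 without ADP-heptose replicate 2 or 3. Between the stimuli 7 to 8 genes were higher when leaving out each library, XIAP being added (log2 0.15, adjusted p = 0.0321, edgeR) without ADP-heptose replicate 3. Directions turned only for differences that were not called. After ADP-heptose TRAF6 ran from −0.18 to 0.021 leaving out each library, the latter without ADP-heptose replicate 3, and between the stimuli at −0.00026 with DESeq2 size factors, −0.11 with library totals, −0.0047 with a mean count of at least 10, −0.0043 with the replicate block, −0.00027 with the DESeq2 test and from −0.073 to 0.13 leaving out each library. XIAP was at −0.049 after ADP-heptose and −0.012 between the stimuli with library totals, a scaling that moved the median of all genes to −0.13 and −0.11. Leaving out each library after flagellin, XIAP ran from −0.047 to 0.0060, TRAF1 from −0.12 (lacking non-stimulated replicate 2) to 0.14 and TRAF4 from −0.025 to 0.084; lacking flagellin replicate 1 turned all 3, TRAF1 to −0.057. The cause was not tested. Over all genes, calls after flagellin were 66, against 143 with 6 libraries, 106 with DESeq2, 124 with no filter, 39 at 2-fold, 46 with the replicate block and 38 to 171 leaving out each library. After ADP-heptose they were 2072, against 586 at 2-fold and 1317 to 3288 leaving out each library, and between the stimuli 1421, against 409 and 912 to 2721. Across genes, deviations from the group mean in same-numbered ADP-heptose and non-stimulated libraries correlated at r = 0.34, −0.50 and −0.34. These values cannot show whether the numbers pair libraries. Deviations within a group of 3 depend on each other, and ADP-heptose replicate 3 stood apart. With the replicate block 7 genes were higher after ADP-heptose, 1 after flagellin and 7 between the stimuli, and 0 were lower. With the median protein-coding transcript length, chosen after seeing the data, BIRC3 took 51.9% of the summed cIAP level after ADP-heptose against 59.2%.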
